A study of Danio rerio with 5 samples.

Results

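The transcripts of zebrafish embryos that received a control morpholino were described from 2 arrays, control morphant replicates 1 and 2, out of the 5 arrays of a study of Bdh2. Bdh2 is a dehydrogenase with a proposed role in making a siderophore, an iron-binding small molecule of mammals. Both arrays hold total RNA of wild-type embryos from natural spawnings, injected at the 1- to 2-cell stage with 1 to 2 nL of morpholino at 130 µmol/L and collected at 72 h after fertilization. The sequence of the control morpholino, the number of embryos per sample and whether the samples came from separate clutches were not given in the labels. These arrays carry no Bdh2 morpholino and no added Bdh2 mRNA, and no uninjected embryos were analysed here, so nothing below separates an effect of injection from the untreated state. No other group was used, and with 2 arrays of 1 group no test was made. Each value is given for replicate 1 and then replicate 2.

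A zebrafish at this age is at or near hatching. It has contracting trunk muscle and a beating heart, primitive red cells that carry embryonic globins, a skin of periderm and basal cells, an eye with a fibrous lens and maturing photoreceptors, and a liver, pancreas and gut that are taking up their digestive roles while yolk is still being used. A whole-embryo RNA sample mixes all these tissues, so a tissue that is large, or that makes much of a few transcripts, fills the upper end of the intensity scale.

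On an Affymetrix array a transcript is read by a probe set, a group of short oligonucleotides whose summarised fluorescence is the intensity. Intensities are in the units of the deposited table, on a linear scale, and levels are log2(intensity + 16), where adding 16 dampens the noise of dim probe sets. Of 15617 probe sets, 115 Affymetrix controls were set aside and 15502 were ranked by their mean level over both arrays. Of the ranked probe sets, 10795 carried 1 gene symbol, 135 carried several and 4572 carried none. Those with 1 symbol covered 8793 genes, each represented below by its probe set with the highest mean. Probe sets differ in how brightly they bind their target, so a rank orders brightness and is only a rough guide to the number of transcripts. Among the 1539 genes with more than 1 probe set, the brightest and dimmest lay a median of 1.57 apart in level, and 375 genes had a gap of over 3. The muscle actin gene actc1b holds the highest rank with intensities of 42112 and 34351, yet 2 others of its 4 probe sets read under 16 on both arrays.

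Median intensity was alike, at 161 and 162, while the brightest probe sets reached 47210.3 and 34351. The arrays differed in technical controls. All 18 probe sets for the bacterial and phage RNAs added at hybridisation (bioB, bioC, bioD and cre) were lower in replicate 2, by a median log2 difference of -0.74. Of 24 probe sets for poly-A control RNAs, 23 were lower in replicate 2, by a median over all of -1.48. The 3'/5' ratio, which is higher in degraded RNA, was 4.28 and 2.6 for the actin control and 2.68 and 1.5 for the gapdh control. A further Affymetrix control probe set read 129 and 25644, a log2 difference of 7.47. The annotation used here does not name its target, which may be a reporter, and a control named for the reporter d2EGFP read 19.8 and 90.9. Whether the embryos of the arrays, both labelled wild type, differ in what that probe set reads was not tested. How far these technical differences enter the differences between the arrays given below was not tested.

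Probe sets are not independent replicates of each other. Over all of them, the levels of the 2 arrays correlated at Pearson's r = 0.957 and Spearman's rho = 0.951. The median absolute log2 difference was 0.36, which corresponds to a median SD of 0.26 (n = 2). Spread was widest, at 0.47, for mean levels between intensities of 16 and 50, and narrowest above 5000, at 0.23. For the dimmest probe sets, below 16, it was 0.30, where the added 16 dampens differences. Of 9818 probe sets at 100 or more in either array, 537 (5.47%) were over 2-fold higher and 458 (4.66%) over 2-fold lower in replicate 2. Among genes at 100 or more in either array, 260 of 6587 (3.95%) were over 2-fold higher and 300 of 6587 (4.55%) over 2-fold lower. These percentages are the background against which the gene lists below are read.

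**Figure D1:**
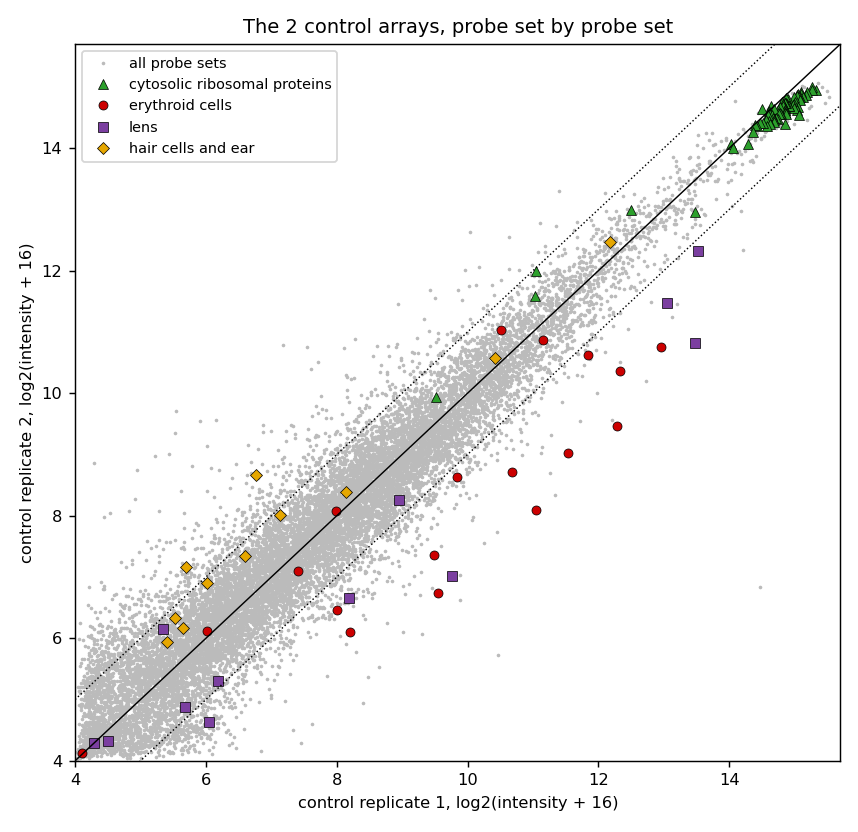
Level in control replicate 1 (x axis) against control replicate 2 (y axis), both as log2(intensity + 16), for all ranked probe sets in grey and for genes of 4 lists in colour. The solid line marks equal levels and the dotted lines a 2-fold difference. Red cell genes lie mostly below the lower dotted line, ribosomal protein genes crowd the upper right corner, and ear genes lie above the solid line. Both axes start at the level of an intensity of 0.

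An intensity of 100 was taken as a fixed level to count against, since the files give no call of presence. Of the ranked probe sets, 8661 (55.9%) were at 100 or more in both arrays, 5684 were under it in both and 1157 passed it in 1 array. At the level of genes, 5978 of 8793 (68%) were at 100 or more in both arrays and 2206 (25.1%) were under it in both. These shares are the background for the list counts at that level given below. The median gene had a mean level of 8.19. At the top of the scale, 209 probe sets read 10000 or more in both arrays. The 100 highest-ranked probe sets held 23.4% and 20.7% of all summed intensity, and 430 and 495 probe sets were enough to hold 50% of it.

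Genes of protein synthesis were the most numerous among the brightest transcripts. Ranks 1 and 3 were held by actc1b, and ranks 2 and 4 by embryonic globin probe sets with several symbols. Of the 100 highest-ranked probe sets, 61 belonged to cytosolic ribosomal protein genes, 7 to fast muscle genes and 3 to globin genes, while 8 carried several symbols and 7 none. All 75 measured genes of the ribosomal protein list were at 100 or more in both arrays, against 68% of all genes. Of the 75, 70 were at 10000 or more. The list was matched by name and also holds rps19bp1 (718 and 967), named as a binding partner of rps19. The median level of the 75 was 14.72, against 8.19 for all genes. Ribosomal protein genes filled 22 of the 30 highest gene ranks. The small-subunit gene rps2 read 41162 and 31669.8, a level of 15.14 ± 0.27 (SD, n = 2), and rpsa, which codes for the laminin-receptor protein of the small subunit, read 39322 and 32749. The acidic stalk gene rplp0 read 39179 and 31514. Other genes of translation stood beside them. The elongation factor gene eef1a1l1 read 34133 and 26342, and rack1, a scaffold on the small subunit, read 33287 and 27867. The next members by rank were faua (28987 and 26229), a ribosomal protein fused to a ubiquitin-like peptide, and ppiaa (28775 and 26170.1), a cyclophilin that helps proteins fold. By contrast the paralogs eef1a1a and eef1a1b were dim, the first at 179.7 and 245, the second at 35 and 59.

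**Figure D2:**
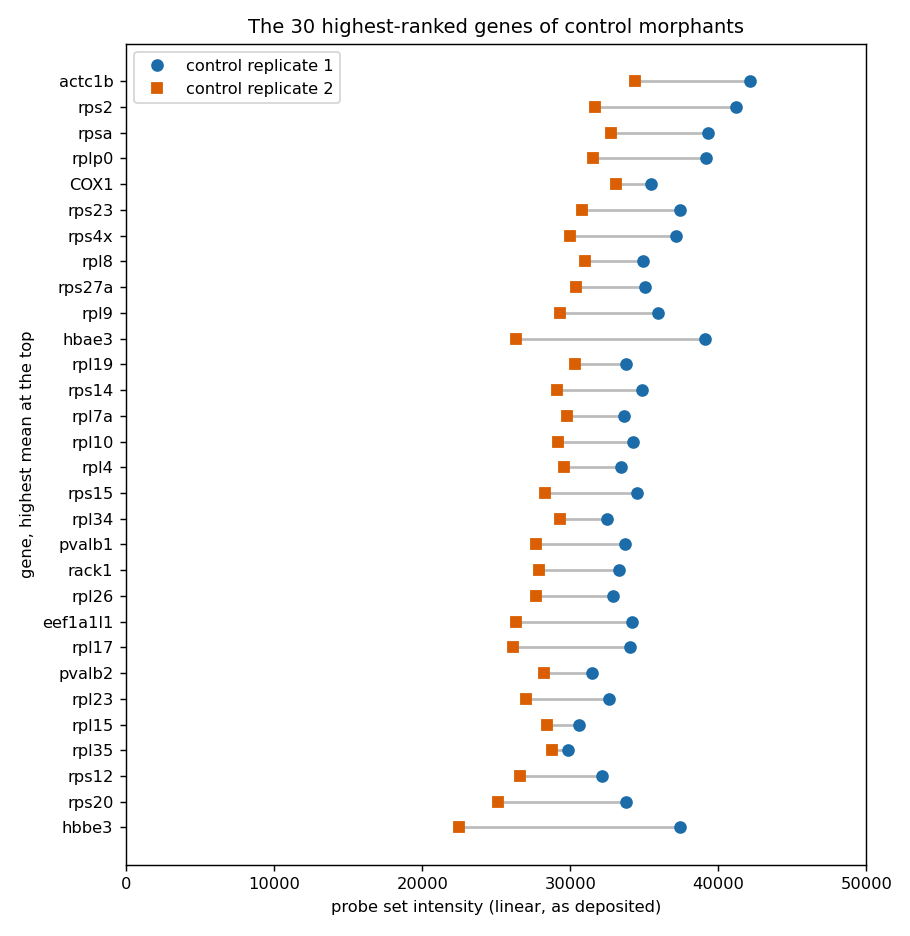
Probe set intensity (x axis, linear) of the 30 highest-ranked genes of control morphants, with replicate 1 as blue circles and replicate 2 as orange squares. Replicate 1 is the higher array for each of the 30 genes, and the globin genes hbae3 and hbbe3 show the widest gaps.

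At this end of the scale replicate 2 was dimmer. Of the 100 highest-ranked probe sets, 96 were lower in replicate 2, with a median log2 difference of -0.23, whereas 49.3% of all ranked probe sets were lower. After quantile normalisation, which gives both arrays the same set of values, 48 of the 100 were lower and the median difference was 0.00. For the ribosomal protein genes the median difference was -0.18 as deposited and 0.03 after quantile normalisation, so their direction depends on the scaling. None of the 75 differed by over 2-fold, but few bright probe sets did, at 1.58% of all those with mean intensities above 5000.

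Mitochondrial and nuclear housekeeping transcripts were also bright. COX1, a subunit of cytochrome c oxidase encoded by the mitochondrial genome, read 35456 and 33064, between rplp0 and rps23 in rank. Of 73 nuclear genes for subunits or close partners of the respiratory chain and ATP synthase, 72 were at 100 or more in both arrays. Among all genes 68% were, and the median level of these 73 was 12.23. The highest were atp5mc3b (20639 and 19343), a subunit of the ATP synthase ring, and cox6b2 (16691 and 15453). Their median difference between the arrays was 0.08, with 28 genes lower and 45 higher in replicate 2. Of the 73, 1 gene, cox4i1l (248 and 77.8), was over 2-fold lower and 0 were over 2-fold higher in replicate 2. Among all genes these shares were 4.55% and 3.95%. Bright probe sets passed 2-fold less often in either direction, 6.63% of them at mean intensities of 1000 to 5000 and 1.58% above 5000. Chromatin proteins of dividing and young cells formed another bright group. All 19 measured members were at 100 or more in both arrays, against 68% of all genes. They were led by the prothymosin gene ptmab (28230.5 and 20850.1), the histone variant gene h2az2b (21537 and 17979), hmga1a (18231 and 15927) and hmgb2a (15051 and 17841).

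Genes of cell division were expressed broadly. Of 36 measured genes, 35 were at 100 or more in both arrays, against 68% of all genes. Their median level was 10.65. The sliding clamp gene pcna read 13259 and 13887, the nucleotide enzyme gene dut 4934 and 6942, the cyclin gene ccnd1 4848 and 3739.7 and the helicase subunit gene mcm2 2856 and 2891. The exception was mcm6, at 22.6 and 49.1. The list had a median difference of 0.11 between the arrays. Of 35 members at 100 or more in either array, 1, gins1 (109.6 and 351), was over 2-fold higher in replicate 2. Among all genes the share was 3.95%.

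Among tissues, skeletal muscle was the brightest. Of 30 measured genes of fast fibres, 29 were at 100 or more in both arrays, against 68% of all genes. Of the 30, 19 were among the 300 highest-ranked of all 8793 genes, and the median level was 13.37. After actc1b came the parvalbumin genes pvalb1 (33688 and 27701) and pvalb2 (31466 and 28231), whose proteins buffer calcium so that fibres relax quickly. The myosin light chain genes mylpfa and mylz3 read 27696 and 25700, and 24742 and 25415. The lower end of the list held the giant structural genes ttn.2 (825 and 1547) and neb (602 and 1288), both higher in replicate 2, and tnnt2c (83.5 and 202). For ttn.2 this is the reading of its brightest probe set. Its others read 327 and 363, 19.8 and 4.86, and 3.21 and 2.54. Slow fibres were represented by 3 measured genes, myl10 (14113 and 13309.8), the slow myosin gene smyhc1 (3975 and 6231) and tpm3 (3329.7 and 4466). The transcription factors that direct muscle fate lay far below the fibre genes, at a median level of 7.21 against 8.19 for all genes. Myogenin (myog) read 314 and 820.2, myod1 166 and 140.3, myf6 49.5 and 37.3 and pax3a 14.6 and 23.1. Of 11 regulators, 6 were at 100 or more in both arrays, against 68% of all genes.

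The leading heart muscle genes were moderately bright, while the list as a whole lay near the median gene. The atrial and ventricular light chain gene myl7 read 2246 and 1540.0, cmlc1 1919 and 1052, hand2, a transcription factor of the heart and fin, 1186 and 846, and tnnt2a, the cardiac troponin T gene, 515 and 339. The cardiac regulators tbx5a (54.3 and 33.8), nkx2.5 (42.4 and 39.8) and gata4 (25.5 and 17.1) were under 100 in both arrays. In all, 8 of 13 members were at 100 or more in both, against 68% of all genes. The median level of the list was 7.81, against 8.19 for all genes. Of 9 members at 100 or more in either array, 3 were over 2-fold higher and 0 over 2-fold lower in replicate 2. Among all genes these shares were 3.95% and 4.55%. Over all 13 members the median difference was -0.19, with 9 lower in replicate 2.

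**Figure D3:**
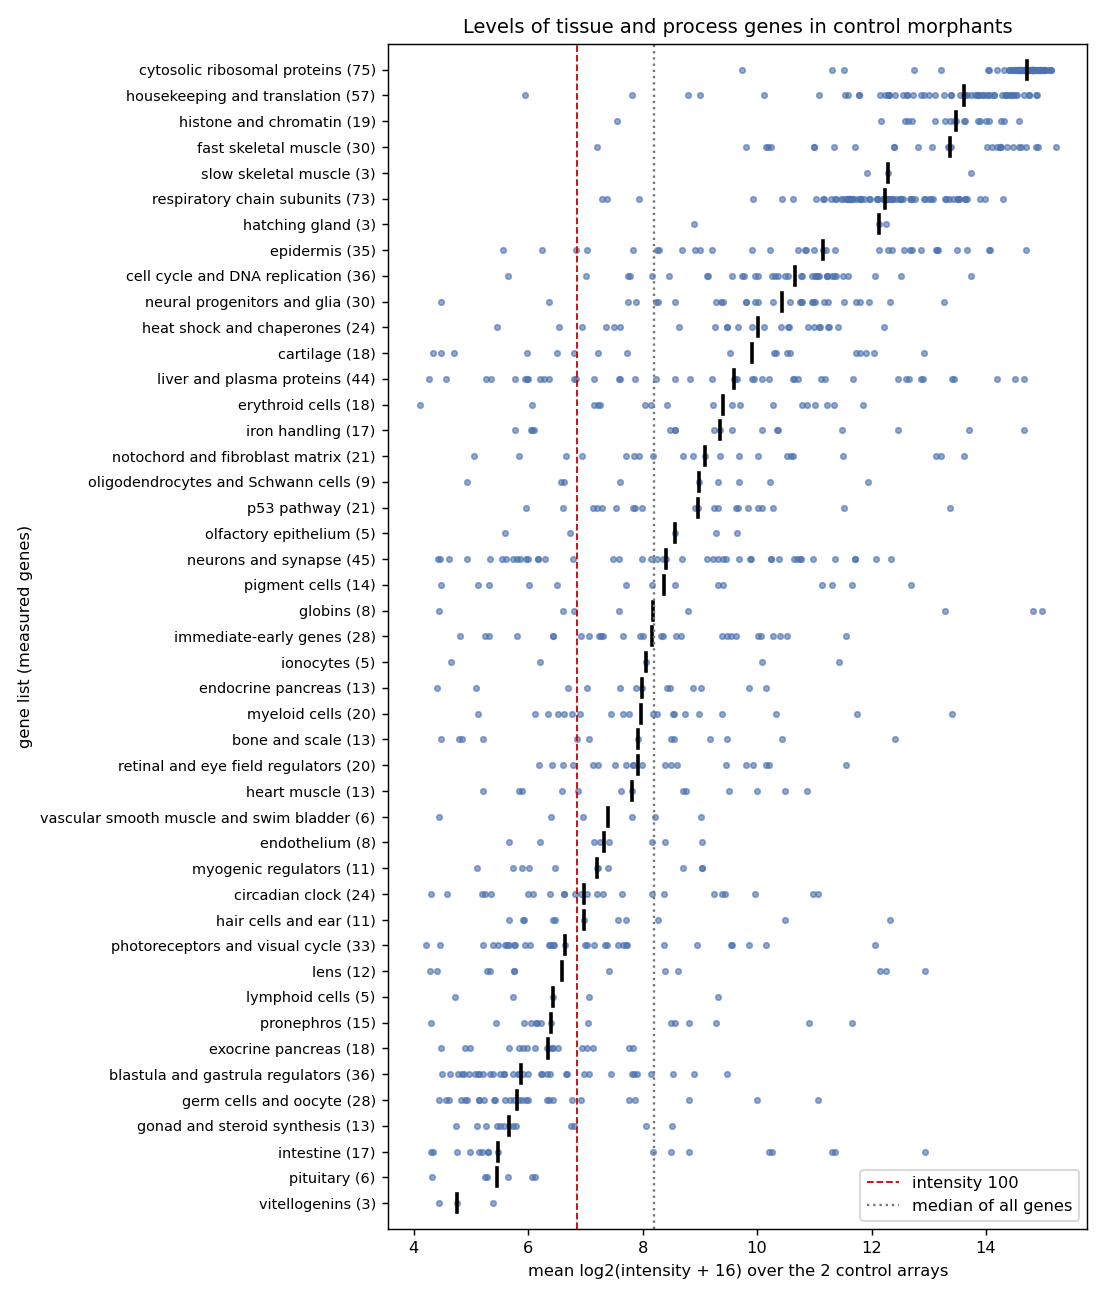
Mean level over the 2 control arrays (x axis, log2(intensity + 16)) of each measured gene (blue points) in 45 gene lists, ordered by their median (black bars), with the number of measured genes in brackets. The dashed line marks an intensity of 100 and the dotted line the median of all genes. Ribosomal proteins have the highest median, and vitellogenins and pituitary genes the lowest.

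Embryonic globins were among the brightest transcripts, and the adult-type globin genes were read far lower. The embryonic alpha globin gene hbae3 read 39125 and 26341, and the embryonic beta globin genes hbbe3 and hbbe2 read 37402 and 22461, and 18927 and 5181. The adult-type gene hbaa1 read 187 and 165 and hbba2 3.63 and 7.98, and a probe set shared by 3 adult beta globin symbols read 312 and 208. Globin copies are near-identical in sequence, so a probe set may read its neighbours too, and probe sets that carry several symbols are not named here. The muscle oxygen store mb read 648 and 282, and the neuronal ngb 66.1 and 99.5.

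The red cell genes had the largest median difference between the 2 control arrays of the 45 lists. Of 16 erythroid genes at 100 or more in either array, 12 were over 2-fold lower in replicate 2, against 4.55% of all genes, and the median difference over all 18 measured was -1.75 as deposited and -1.77 after quantile normalisation. The anion exchanger gene slc4a1a, whose protein is the major one of the red cell membrane, read 7927 and 1708. The carbonic anhydrase gene cahz read 5136 and 1301, and alas2, the first enzyme of heme synthesis in red cells, 4982 and 690.2. The membrane skeleton gene epb41b read 2090.1 and 256, nt5c2l1 2966 and 506 and the regulator klf1 729 and 90.9. Each of these is lower in replicate 2 by more than 2-fold. Not all members followed, since tmem14ca, which moves heme precursors in mitochondria, read 2263 and 1859, and the mitochondrial iron importer gene slc25a37 was dim on both arrays (48.6 and 53.1). In bulk RNA such as this, fewer red cells and less RNA per red cell cannot be told apart. Of the embryonic globins, hbbe2 had a log2 difference of -1.87, hbbe3 of -0.74 and hbae3 of -0.57, each lower than the median of the 100 highest-ranked probe sets.

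**Figure D4:**
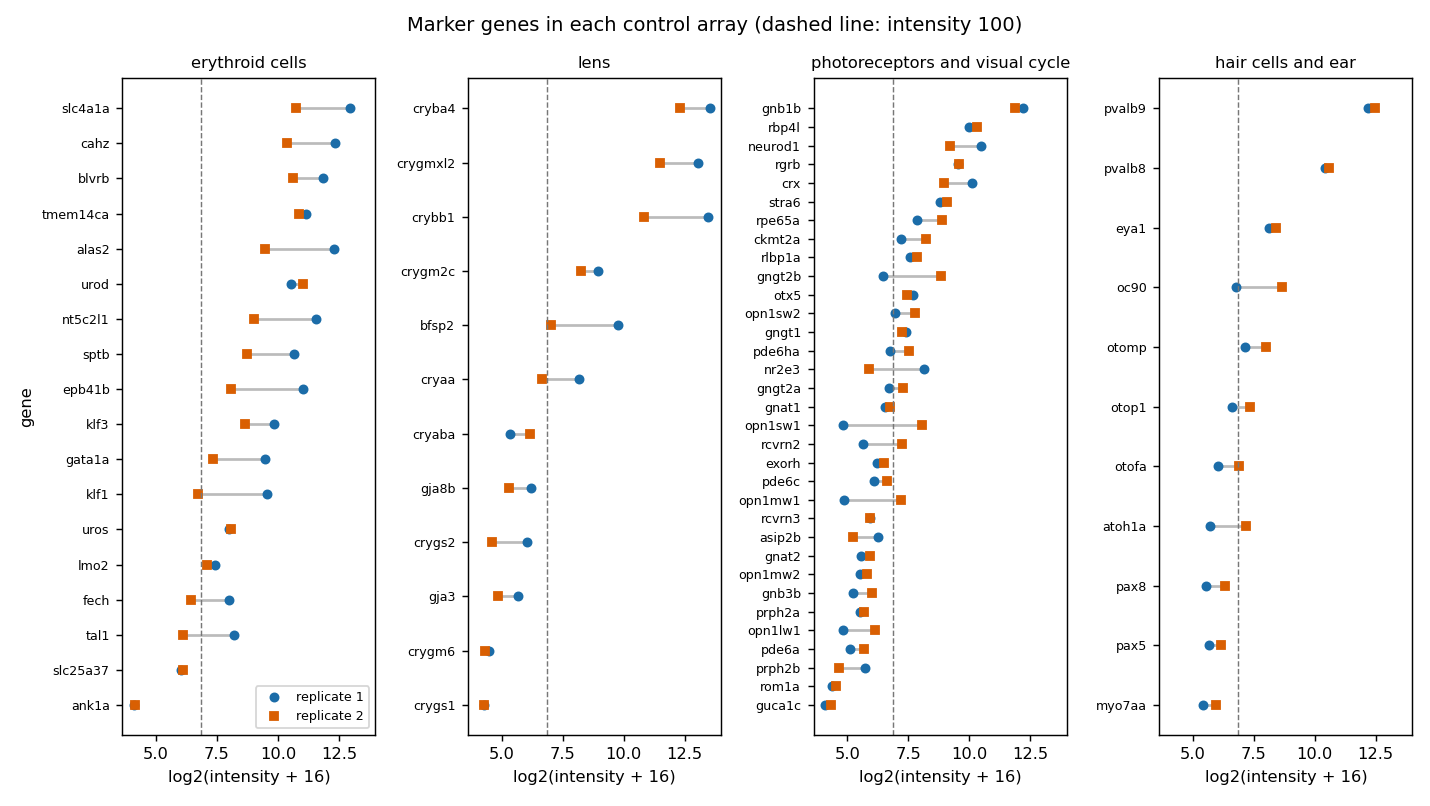
Level (x axis, log2(intensity + 16)) of each measured gene of 4 lists in control replicate 1 (blue circles) and replicate 2 (orange squares), joined by grey lines, with the dashed line at an intensity of 100. Most red cell and lens genes are lower in replicate 2, and the ear genes are all higher in it.

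White blood cell genes also differed between the arrays. Lysozyme (lyz), an enzyme of neutrophils and macrophages, read 5599 and 2103, and the apolipoprotein gene apoeb, which is also made by the yolk layer and other cells, read 9381 and 12545. The protease gene ctss2.1 read 811 and 1996 and the regulator gene cebpa 565 and 425. Of 16 myeloid genes at 100 or more in either array, 6 were over 2-fold lower and 3 over 2-fold higher in replicate 2. Among all genes the shares were 4.55% and 3.95%. The pan-leukocyte gene ptprc was dim (57.9 and 49.3). The recombinase genes of lymphocytes, rag1 (39 and 35.9) and rag2 (9.57 and 11.2), were under 100 in both arrays. The best-measured members of the lymphoid list, gata3 (703 and 549) and tox (101 and 136), are also used by other tissues. Endothelial genes were modest, with the vascular receptor genes kdrl at 241 and 301 and flt4 at 154 and 155, and tie1 and tek under 100 (55.1 and 60.5, and 25.6 and 46).

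Epidermis had the highest median level after muscle among tissue lists with more than 3 measured genes. Of 35 measured epidermal genes, 30 were at 100 or more in both arrays, against 68% of all genes. Their median level was 11.15. The periderm keratin gene krt4 read 32398 and 21596, the calcium-binding protein genes icn2 and icn 20806 and 14316, and 20413 and 14122, the keratin gene krt1-19e 14522 and 11480.2 and the annexin gene anxa1c 9050.3 and 14732. At the lower end, aep1 read 92 and 36.6 and krt93 23.3 and 40.1. The gene agr1, of the anterior gradient family, had the lowest difference of all genes with a mean intensity level of at least 100, at 926 and 82.4 (-3.26). Its other probe set read 14.3 and 7.82. Of 5 measured ionocyte genes, ca2 (3816 and 1980.3) and the sodium pump genes atp1b1b (1122 and 1025) and atp1a1a.3 (244 and 258) were at 100 or more in both arrays, and the ammonia channel gene rhcgb was not (6.82 and 11.7). The other ca2 probe set read 102 and 118. The hatching gland, whose enzymes digest the egg envelope, was read brightly by probe sets that carry several symbols and so count for no single gene. That of the hatching enzyme genes read 13186 and 17919, and a set for cathepsin L family genes, among them the hatching gland cathepsin, read 17485 and 27774. Both were brighter in replicate 2. The 3 measured single genes of the list, cd63 (4554 and 5248), xbp1 (5946 and 3387) and klf17 (613 and 348), are shared with other tissues.

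Matrix and skeletal genes ranged widely. The fibrillar collagen genes col1a1a and col1a2 read 15991 and 9730.4, and 11078 and 8156, and postnb, a matrix protein gene of fins and connective tissue, read 11375 and 6925. In cartilage, the collagen genes col2a1a (10055 and 5945), col11a1a (5359.7 and 3328) and col9a1b (4687 and 3068) led, whereas the regulator sox9a (2.78 and 10.3) and ucmaa (7.44 and 1.24) read under 16. The paralog sox9b read 2231 and 1019 with its brightest probe set and 37.6 and 32 with its dimmest. Of 18 measured cartilage genes, 11 were at 100 or more in both arrays, against 68% of all genes. The cartilage matrix gene matn1 read 44.3 and 733, among the widest gaps between the arrays. The bone list was led by sparc (6872 and 4325), which osteoblasts share with other connective cells, and by acp5a (1173 and 1601) and ctsk (677 and 711). Both acp5a and ctsk are used as osteoclast genes, but which cells of the embryo made these transcripts was not tested. At the lower end of the list, the osteoblast genes spp1 (17.1 and 9.24) and sp7 (6.4 and 6.12) were dim. The regulator gene runx2a of the same list, picked out after its values were seen, read 319 and 371. Of 13 measured bone genes, 8 were at 100 or more in both arrays and 4 under it in both. Among all genes the shares at that level were 68% and 25.1%. Of the notochord genes, shhb (104 and 68.8) and noto (33.7 and 50.5) were at the lower end of their list. The fin fold genes and2 (4710.2 and 741) and and3 (2438 and 399.8), which code for the actinodin fibres, were both over 2-fold lower in replicate 2.

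Liver, yolk and gut genes included very bright and very dim members. The apolipoprotein genes apoa2 (28715 and 23471), apoa1a (22250.4 and 24290.4) and apoc1 (17936 and 19253), which serve lipoproteins made in the yolk syncytial layer as well as in the liver, held gene ranks 55, 80 and 109. The retinol carrier gene rbp4 read 9287 and 13315. Of 44 measured genes of the liver and plasma list, 30 were at 100 or more in both arrays and 10 were under it in both. Among all genes these shares were 68% and 25.1%, so the list lay near the background. The dim genes of the list included ahsg1 (11 and 38.2), apoc4 (7.84 and 7.23) and cyp2k18 (3.34 and 3.25). Also dim was fabp10a (56.3 and 78), the fatty acid-binding protein widely used to mark hepatocytes, which was named here after its value was seen. In the gut, the fatty acid-binding protein genes fabp1b.1 (6599 and 9327) and fabp2 (2237 and 3037) and agr2 (3098 and 2061), a gene of secretory cells, were bright. The chitinase genes chia.1 and chia.2 read 3.37 and 5.32, and 3.41 and 4.15. The lipid transfer gene mttp, the brush border gene vil1 and the peptide transporter gene slc15a1b also lay under 25 on both arrays, as 18 and 13.4, 24.5 and 22.6, and 20.8 and 18.1. They were likewise chosen after their values were seen. Of 17 measured gut genes, 8 were at 100 or more in both arrays and 9 under it in both, against 68% and 25.1% of all genes.

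The digestive enzymes of the pancreas, which rank among the most abundant transcripts of feeding larvae, were mostly dim in both control arrays. The brightest enzyme of the list was cpa5, at 312 and 127, a carboxypeptidase gene that the myeloid list holds as well, so its reading is not particular to the pancreas. Trypsin (prss1) read 92.4 and 123, the elastase gene ela2l 98.3 and 155 and the carboxypeptidase genes cpb1 and cpa1 127 and 104, and 4.63 and 26.6. The chymotrypsin gene ctrb.1 read 18.3 and 13 and the lipase gene cel.1 5.64 and 6.67. Of 18 measured genes of the exocrine list, 3 were at 100 or more in both arrays, against 68% of all genes, and the median level was 6.34. Counted in replicate 2 alone, without replicate 1, 6 were at 100 or more. The regulator ptf1a, which is also used by neurons of the retina and hindbrain, was the highest member (239 and 187). Of the endocrine genes, insulin (ins) read 518 and 403 and the secretory granule gene scg3 508 and 495, while gcga, the glucagon gene, read 95.5 and 80.3, pdx1 7.19 and 34 and insb 7.6 and 3.18. All 6 measured pituitary genes were under 100 in both arrays, against 25.1% of all genes. Among them were prl (67.3 and 41.8), gh1 (45.8 and 56.1) and pomca (6.82 and 50.0). Absent cells, few cells, weakly binding probe sets and embryos younger than the labelled 72 h cannot be told apart here.

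In the eye, the leading lens genes were bright and differed between the arrays, and photoreceptor genes lay mostly below the median gene. The crystallin genes, whose proteins fill the lens fibres, read 11792 and 5118 for cryba4, 8436 and 2831 for crygmxl2 and 11349 and 1799 for crybb1. The lens filament gene bfsp2 read 847 and 114. Of 12 measured lens genes, however, 5 were at 100 or more in both arrays and 6 were under it in both. Among all genes the shares at that level were 68% and 25.1%. The median level of the lens genes was 6.59, also below the median gene. Of 6 lens genes at 100 or more in either array, 5 were over 2-fold lower in replicate 2, against 4.55% of all genes. The median difference over all 12 lens genes was -1.04 as deposited and -1.09 after quantile normalisation. The brightest lens reading came from a probe set shared by 12 symbols, nearly all of the gamma M2d crystallin family, at 45034 and 27245, rank 8 of all ranked probe sets. A second set shared by 7 symbols of that family read 9429 and 2803. These copies cannot be told apart and are in no count of lens genes given here. The single-symbol crystallin genes crygm6 (6.67 and 4.03) and crygs1 (3.56 and 3.55) were at the floor of the scale. Of 33 photoreceptor and visual cycle genes, 12 were at 100 or more in both arrays and 14 under it in both. The shares among all genes were 68% and 25.1%. This list had a median level of 6.65, against 8.19 for all genes. The brightest, gnb1b (4739.8 and 3787), is a G protein subunit that many cells use. The homeobox gene crx read 1081 and 487, rbp4l, a retinol-binding protein gene, 1016 and 1245, and rgrb, a visual pigment relative, 733 and 749. The outer segment genes prph2b, rom1a and guca1c read 37.7 and 9.46, 5.01 and 7.29, and 1.17 and 4.02.

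Within the eye lists the differences ran both ways. Of 19 photoreceptor genes at 100 or more in either array, 5 were over 2-fold higher and 3 over 2-fold lower in replicate 2. Over all genes these shares were 3.95% and 4.55%. The higher photoreceptor genes included the cone transducin subunit gene gngt2b (72.2 and 446) and the cone opsin genes opn1sw1 (12.3 and 254) and opn1mw1 (13.2 and 132). The lower ones were the regulators crx, neurod1 (1409 and 583) and nr2e3 (265 and 44.1). The opsins and nr2e3 were picked out after their values were seen. Of the 18 eye field and retinal regulators at 100 or more in either array, 6 were over 2-fold lower and 1 was over 2-fold higher in replicate 2. That compares with 4.55% and 3.95% of all genes, and the list median was -0.66. Examples of lower regulators were otx2b (1894 and 717), which patterns the forebrain and retina, and vsx1 (1197 and 644) of bipolar cells, the latter by under 2-fold. By contrast pax6a, a gene of eye and brain, read 974 and 946.

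In the ear and lateral line list all 11 measured genes were higher in replicate 2. Of all 8793 genes, 4292 were. The list was dim, at a median level of 6.97 against 8.19 for all genes. Of its 11 genes, 4 were at 100 or more in both arrays and 3 under it in both. Among all genes these shares were 68% and 25.1%. The median difference over 11 genes was 0.73 as deposited and 0.67 after quantile normalisation, and 2 of 8 at 100 or more in either array were over 2-fold higher, against 3.95% of all genes. The otolith matrix genes oc90 and otomp read 92.2 and 388, and 124 and 241. The brightest members, the parvalbumin genes pvalb9 (4618 and 5648) and pvalb8 (1350.1 and 1508), differed by 0.29 and 0.16. The hair cell motor gene myo7aa was dim (26.2 and 45.3).

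**Figure D5:**
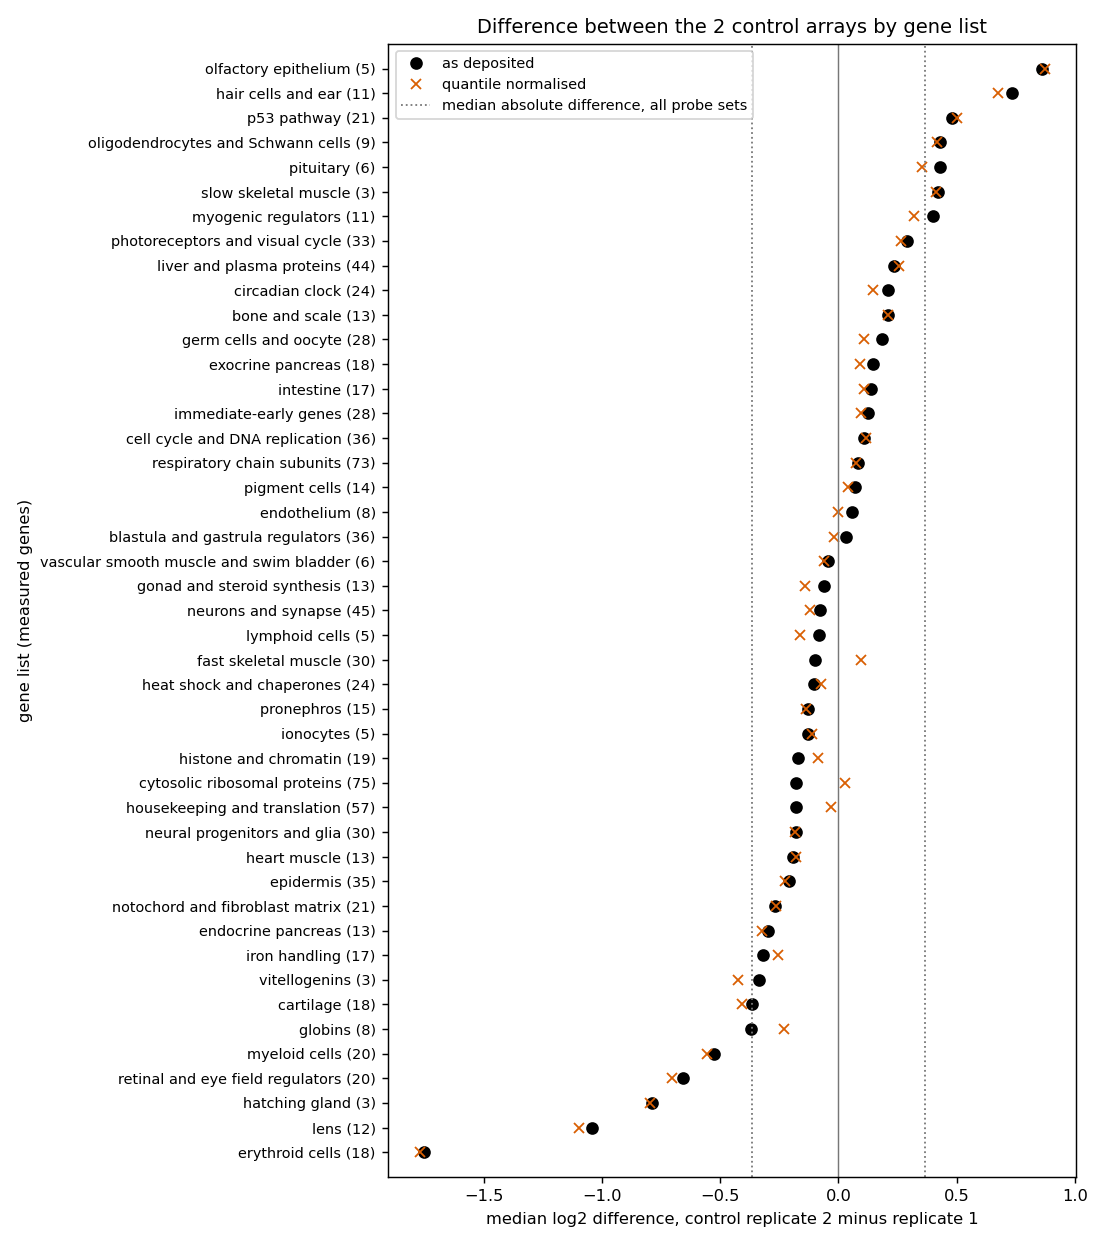
Median log2 difference between the 2 control arrays (x axis, replicate 2 minus replicate 1) for each of 45 gene lists, as deposited (black circles) and after quantile normalisation (orange crosses). The dotted lines mark the median absolute difference of all probe sets on either side of 0. Erythroid and lens lists lie farthest to the left and the olfactory and ear lists farthest to the right.

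Neuronal genes were at 100 or more in both arrays at about the rate of all genes. Of the 31 neuronal genes at 100 or more in either array, 1 was over 2-fold higher and 0 were over 2-fold lower in replicate 2. All genes had shares of 3.95% and 4.55%. Of 45 neuronal and synaptic genes, 29 were at 100 or more in both arrays and 14 under it in both, against 68% and 25.1% of all genes, and the median difference was -0.08. The brightest were rtn1a (5828 and 4625), a reticulon of the neuronal endoplasmic reticulum, sncb (4519.9 and 4119), a synuclein, and elavl3 (3984 and 2816), an RNA-binding protein gene that marks young neurons. The tubulin gene tubb5 read 3583 and 3068, and stmn1b, a microtubule regulator gene of growing axons, 3703 and 1845. The tyrosine hydroxylase gene th, which marks dopamine neurons, read 6.41 and 5.72, and the adhesion genes ncam1a and ncam1b read 9.55 and 7.56, and 8.7 and 2.62. Progenitor and glial genes were brighter as a list, with a median level of 10.43. At 100 or more in both arrays were 28 of 30 members, against 68% of all genes. The radial glial gene fabp7a read 12470 and 7727, the glutamine synthetase gene glulb 4988 and 5277, the progenitor gene sox3 4292 and 3627, the glutamate transporter gene slc1a2b 3711 and 3384 and the Notch ligand gene dld 3123 and 3690.3. Myelin genes were uneven, with pmp22a at 3354 and 4520.1 and mbpb at 921 and 704, while cldnk read 49.5 and 121 and mbpa 2.42 and 34.8. In the olfactory list calb2b read 578 and 1062, and ompb, a marker of mature olfactory neurons, 26.5 and 38.9.

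Pigment cell genes were led by enzymes. The purine synthesis genes paics (6436 and 6726) and atic (2481 and 2013), which dividing cells also need, and the pteridine gene gch2 (3474 and 2952) lay near dct (3049 and 2065), an enzyme of melanin synthesis. The receptor genes kita (9.37 and 47.1) and mc1r (5.5 and 7.14) were under 50 on both arrays. In the kidney list the water channel genes aqp1a.1 (4296 and 2421), which red cells and vessels share, and aqp3a (2959 and 1211), which skin shares, led. Of 15 members, 8 were under 100 in both arrays, against 25.1% of all genes. Among those 8 were the podocyte regulator wt1a (29.8 and 25) and the sulfate transporter gene slc13a1 (6.48 and 1.36).

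Genes of iron handling are of interest in a study of a siderophore enzyme. The bdh2 probe set read 344 and 335, a level of 8.47 ± 0.03 (SD, n = 2), and ranked 3961 of 8793 genes. The ferritin genes fth1a (30092 and 22167) and fthl27 (13619 and 13152), which store iron, were among the brightest, followed by the plasma carrier transferrin (tfa, 5989.6 and 5305), ncoa4 (3661 and 2204), whose protein delivers ferritin for breakdown, and the ferritin-like gene fthl30 (1471 and 1156). The gene bmp6, which acts upstream of the iron hormone hepcidin, read 46.1 and 54.3, and the heme scavenger gene hpxa 45 and 32.9. Of 17 members, 13 were at 100 or more in both arrays, against 68% of all genes. Among those at 100 or more in either, 0 differed by over 2-fold, against 3.95% of all genes higher and 4.55% lower.

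Stress pathways were examined because injected morpholinos are known to activate p53 in zebrafish in some cases. Of 21 p53 pathway genes, 17 were at 100 or more in both arrays, against 68% of all genes. The target gene ccng1 read 9609 and 11688, rps27l 2096 and 4081, tp53inp1 1091 and 1039 and the death gene baxa 859 and 1204, while fas read 33.7 and 62. The median difference was 0.48 as deposited and 0.50 after quantile normalisation. Of 20 genes at 100 or more in either array, 4 were over 2-fold higher in replicate 2, against 3.95% of all genes. No response can be read from these levels, since no uninjected embryos were analysed here. Of the chaperones, the constitutive genes hspa8 (24197 and 19785) and hsp90ab1 (17417 and 12542), held in the housekeeping list and picked out after their values were seen, were far brighter than any member of the heat shock list. In that list hspe1 (4117 and 5405) and hspd1 (2592 and 2819) of mitochondria and hspa5 (3519 and 1651) of the endoplasmic reticulum were among the highest. Its lowest member was hspa1b (57.6 and 10.1), while a probe set shared by 3 symbols of inducible hsp70 genes read 958 and 1180. Among 23 heat shock genes at 100 or more in either array, 5 were over 2-fold lower and 3 over 2-fold higher in replicate 2. The shares of all genes were 4.55% and 3.95%. Immediate-early genes spanned ier5 (2940.0 and 3040.4) and jun (1493 and 1193) at the top and egr4 (20.7 and 27.2) and npas4a (33.3 and 13) at the bottom. Clock genes spanned nfil3-5 (2775 and 1625) and bhlhe40 (1788 and 2228), to clocka (8.78 and 7.01) and cry3a (2.78 and 4.7).

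Genes of other life stages were mostly dim. Of 36 blastula and gastrula regulators, 24 were under 100 in both arrays, against 25.1% of all genes, including nanog (6.69 and 6.41) and the endoderm gene sox32 (8.72 and 8.84). The members at the top, foxd3 (768 and 625) and klf17 (613 and 348), are used again in neural crest and hatching gland. Of 28 germ cell and oocyte genes, 20 were under 100 in both, such as the oocyte polarity gene buc (8.28 and 6.94), the meiotic gene sycp3 (4.86 and 12.7) and btg4 (5.7 and 5.68), and the brightest, ccnb1 (1849 and 2464), is a cyclin of all dividing cells. All 3 measured vitellogenin genes, which adult females express in the liver, were under 100 in both arrays (vtg3 at 31.2 and 21.4). Among all genes 25.1% were. Of 13 measured steroid and gonad genes, 9 were under 100 in both arrays, against 25.1% of all genes, among them amh (23.6 and 20.8). The 2 at 100 or more in both were cyp17a1 (581 and 207) and star (276 and 229.7), which the interrenal gland also uses. The other cyp17a1 probe set read 22.8 and 7.35. Whether the pancreatic enzyme, pituitary and fabp10a readings given above are low for the labelled age was not tested, since no other stage was compared. Nor was it tested whether the label or the probe sets account for them. The gene fabp10a was picked after its value was seen, from a list that lay near the background.

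Of 6310 genes with a mean intensity level of at least 100, those with the widest differences between the arrays came from several tissues. The highest in replicate 2 was egln3 (30.5 and 822, a log2 difference of 4.17), a prolyl hydroxylase that marks hypoxia-inducible factors for removal and is itself raised by low oxygen. The protein phosphatase 1 inhibitor gene ppp1r14ab followed (21.2 and 485, 3.75). Others were ppp1r15a (293 and 1876), which restores translation after stress, psmb10 (83.9 and 551), an immunoproteasome subunit, cyp1a (673 and 3284), an enzyme induced through the aryl hydrocarbon receptor, and pfkfb3 (87.2 and 453), a regulator of glycolysis. On the lower side, besides the red cell, lens, fin fold and agr1 genes already given, stood lctla (613 and 50.9), hif1al2 (499.5 and 53), fkbp5 (1205 and 172), a chaperone partner induced by glucocorticoids, and hdr (605 and 88.9). Each is 1 array against 1, with no replicate check.

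The brightest genes that belong to none of the 45 lists were picked out after their values were seen. After COX1 the named ones were bhmt (26902 and 20638), a methyltransferase of the methionine cycle, and actc1a (23955 and 19703), a cardiac and skeletal muscle actin. The cold-inducible RNA-binding protein genes cirbpb and cirbpa read 20956 and 20449, and 15888 and 18277. The fatty acid-binding protein gene fabp3 read 18502 and 15335, and tubb2b, a tubulin gene of neurons, 17426 and 15947. All of these lay within 2-fold between the arrays.

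Several probe sets of the same gene often read at very different levels, which limits any single reading given above. Among list genes, 59 of 930 had probe sets more than 3 apart in level. For elavl3 the brightest read 3984 and 2816 and the dimmest 25.5 and 101.5. For sox3 the same readings were 4292 and 3627 against 84 and 49. For glulb they were 4988 and 5277 against 132 and 204. A gene named as dim above may likewise have been read by a weak probe set only. At the upper end, 8 genes had more than 1 probe set among the 200 highest-ranked, among them COX1 with 3, and actc1b, hbae3, icn and mylpfa with 2 each.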

How the data were processed

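The series was profiled on Affymetrix zebrafish arrays, and the 2 control morphant arrays are used here. Per the submitters' processing notes the deposited intensity values come from Affymetrix Expression Console; neither its version, the summarisation algorithm nor a scaling target was given in the labels. The sorted values differ between arrays, so the deposited intensity table is not quantile normalised. No normalisation was added, and levels are log2(intensity + 16) of the deposited intensities. Gene symbols came from the array's annotation, updated by gene identifier where the reference gene table held it (10718 probe sets matched, 1 symbol changed). Analyses used Python 3.11.15, pandas 2.3.3 and numpy 2.4.6. Depth does not apply to arrays, and their number, 2, limits the precision. No test was made. The spread statistics were tested on simulated data.

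The rule for named genes took the 30 highest-ranked genes, the 5 highest and 3 lowest measured members of each of 45 lists, the 15 widest differences each way among genes of mean level of at least 100, bdh2, and genes whose probe sets disagree by over 3. The 9 list members named outside it (fabp10a, mttp, vil1, slc15a1b, opn1sw1, opn1mw1, nr2e3, hspa8 and hsp90ab1) and the probe sets with several symbols were chosen after their values were seen. So was runx2a. Lists held 930 measured genes. The lists and the members were chosen with earlier results of these data known. Name patterns for the ribosomal and respiratory lists were corrected after a first look, removing kinase and assembly factor genes, as were 4 wrong synonym matches. The ribosomal list still holds rps19bp1.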

Additional observations from a re-analysis of the deposited data

How the results depend on the processing

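Arrays limit the precision by their number, so leaving out an array gives a value from 1 array. No paired analysis was possible because all samples used belong to 1 group. The correlation of the arrays was 0.939 with a constant of 1, 0.964 with 64 and 0.931 among probe sets of mean level of at least 100. The median absolute log2 difference ran from 0.26 with a constant of 64 to 0.44 with a constant of 1. The counts over 2-fold, higher and lower in replicate 2, were 323 and 296 with a constant of 64 and 944 and 737 without the filter. Probe sets at 100 or more numbered 9307 without replicate 1 and 9172 without replicate 2. The 100 highest-ranked probe sets shared 95 members with the ranking without either replicate, and held between 20.8% and 23.4% of the summed intensity of a single array. List members at 100 or more numbered 651 with both arrays and ran from 683 to 694 with 1 array. Counts of members moved by over 1.5 times in 8 of 45 lists at a level of 200, in 6 at 50, in 4 with the dimmest probe set of each gene, in 2 without replicate 1 and in 1 without replicate 2. Quantile normalisation, added after seeing the data for list differences, turned the sign of 4 of 45 list medians (ribosomal proteins, fast muscle, endothelium, blastula and gastrula), the widest of them at 0.18 in size before it, and centring turned none. By level, the arrays differed most between mean intensities of 16 and 50.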
